A study of Danio rerio with 9 samples.

Results

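*pth1a*, which encodes a parathyroid hormone, and *fstb*, which encodes follistatin b, are 2 genes for secreted signals among the 37176 transcripts measured in regenerating zebrafish tails. They were read from the array transcripts NM_212950 and NM_001039631. Both were chosen by their fold change and adjusted p-value in the comparison of cut with uncut tails, which had called them higher, so their change in this comparison is described here and not tested. Fold changes of genes chosen in this way tend to be too large. The confidence intervals given for them are not corrected for the choice. The study kept wild type AB fish and the Tg(TOP:GFP) line, and its methods do not name the strain of the larvae used for the arrays. Cut tails came from larvae amputated just behind the notochord at 2 days post-fertilization (dpf) and collected at 3 dpf, 1 day post-amputation (dpa), and were hybridized to 5 arrays. Uncut tails came from siblings that were not amputated and were collected at 3 dpf, on 4 arrays. RNA of about 150 tails per condition was amplified before labeling. It is not stated whether each replicate was its own pool of tails, so p-values and errors describe only how these samples varied, perhaps for technical reasons.

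Parathyroid hormone and its relative, parathyroid hormone-related protein, act on shared receptors coupled to G proteins. In mammals they set blood calcium and regulate bone and cartilage. Fish lack parathyroid glands, and in zebrafish embryos *pth1a* transcripts are known from the lateral line neuromasts and the ventral neural tube. Follistatin is a secreted glycoprotein that binds activin and myostatin and, less tightly, some bone morphogenetic proteins (BMPs), and keeps them from their receptors. Activin signaling is known to be needed for fin regeneration in adult zebrafish, and follistatin is known in vertebrates for its action on skeletal muscle.

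The arrays measured whole posterior tissue, in which fewer cells of a type and less RNA per cell cannot be told apart. Values are on the log2 scale, 1 per transcript and array, and their medians lay between 8.54 and 8.63 in the 9 arrays. No pair of arrays held identical values, and their correlations ran from 0.961 to 0.994. Among markers of tissues that a tail could hold, 13 skeletal muscle genes averaged 9.95 to 10.81 and 7 genes of fin mesenchyme and blastema 8.75 to 9.19. These 7 were *bglap*, *fbln1*, *hoxc13b*, *runx2b*, *sp7*, *spp1* and *twist2*. Other genes of that list, among them *aldh1a2*, *fgf20a*, *junba*, *fn1b* and *vcana*, could not be assigned here and are upregulated in the study's own list. The mean of the 7 thus does not show the level of those genes. Lens genes, which a tail should lack, stood apart in 2 arrays. Their mean over 13 genes was 7.56 to 8.03 in 7 arrays, but cut replicate 3 had 11.41 and cut replicate 5 had 9.21. Cut replicate 3 was also highest in the mean of 6 neuronal genes, at 9.27, where the other arrays had 7.47 to 7.98. The same array was highest in the mean of 4 photoreceptor genes, at 6.99 (5.69 to 6.30 in the others). In the 1 measured gene of exocrine pancreas it had 11.62 (8.62 to 9.77 in the others). Results for *pth1a* and *fstb* are therefore also given without these 2 arrays.

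In uncut tails, *pth1a* had log2 values of 6.37, 5.92, 7.27 and 6.42 in replicates 1 to 4. In cut tails, it had 8.30, 7.58, 8.34, 8.18 and 8.46 in replicates 1 to 5. The groups did not overlap, and the lowest cut array, replicate 2, lay 0.31 above the highest uncut array, replicate 3. The mean was 8.17 ± 0.34 (SD, n = 5) in cut and 6.50 ± 0.57 (SD, n = 4) in uncut tails. The log2 fold change was 1.67 (SE 0.27), or 3.19-fold, with a 95% confidence interval of 2.12 to 4.81. Without cut replicates 3 and 5, the cut arrays lay at 7.58 to 8.30, the log2 fold change was 1.52 and the call was lost (limma adjusted p = 0.170).

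*fstb* had values of 8.97, 7.52, 8.31 and 7.81 in uncut replicates 1 to 4. In cut replicates 1 to 5 it had 9.95, 9.48, 9.28, 9.45 and 9.29. Again the groups did not overlap, with a gap of 0.31 between the lowest cut array, replicate 3, and the highest uncut array, replicate 1. The mean was 9.49 ± 0.27 (SD, n = 5) in cut and 8.15 ± 0.64 (SD, n = 4) in uncut tails. This gave a log2 fold change of 1.34 (SE 0.27), or 2.53-fold, with a 95% confidence interval of 1.66 to 3.85. Without cut replicates 3 and 5, the cut arrays lay at 9.45 to 9.95, the log2 fold change was 1.48 and the call was lost (limma adjusted p = 0.194). In the comparison that chose both genes, 0.468% of all transcripts were called higher, where a call needed a 1.5-fold change or more and an adjusted p no higher than 0.1 (limma, Benjamini-Hochberg). The groups did not overlap, with all cut arrays higher, for 2.83% of transcripts, and with all cut arrays lower for 1.89%. Since both genes were picked from these calls, nothing is read from their count.

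**Figure D1:**
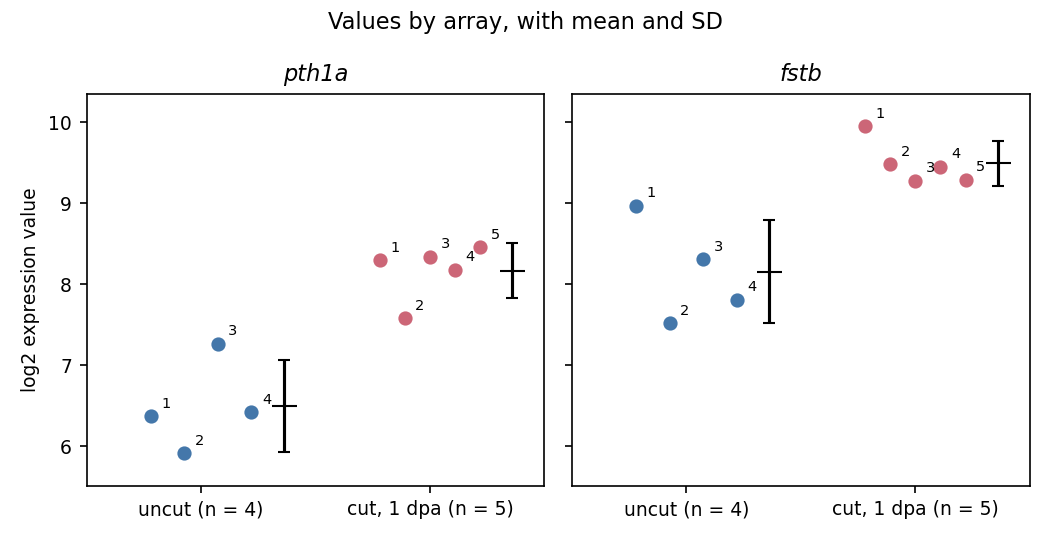
Log2 expression values of *pth1a* (left) and *fstb* (right) in each uncut (blue) and cut (red) array, numbered by replicate, with the mean and SD of each group as bars. The cut arrays of *pth1a* lie at 7.58 to 8.46 and those of *fstb* at 9.28 to 9.95, above all uncut arrays.

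Relative to the other transcripts of the array, *pth1a* gave a low signal in uncut tails and a middling one in cut tails. Its group mean stood at percentile 19.7 of all transcripts in uncut and 43.1 in cut tails. By array, it ran from percentile 12.5 to 29.8 in uncut and from 34.4 to 47.3 in cut tails, so that it stayed in the lower part of the array after amputation. *fstb* moved from percentile 43.8 to 62.8, with 33.7 to 55.5 in single uncut arrays and 59.7 to 68.2 in cut arrays. Probe sequences differ in how brightly they hybridize, so these ranks place a signal and do not compare the abundance of the 2 transcripts. By fold change, *pth1a* ranked 66 and *fstb* 135 of 37176 transcripts, and 6 and 14 among the 2663 that could be assigned to a gene. As both genes were chosen partly by this fold change, their high ranks are not a result.

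**Figure D2:**
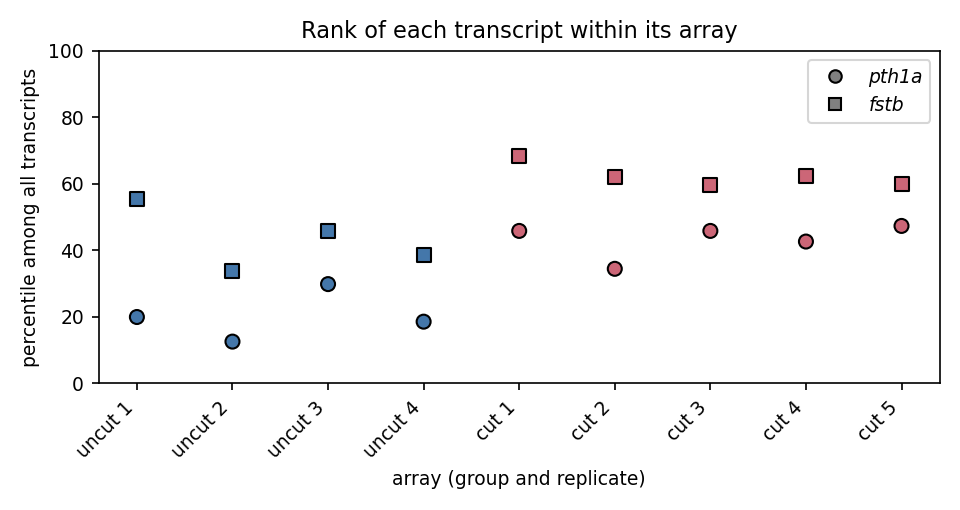
Percentile of the signal of *pth1a* (circles) and *fstb* (squares) among the 37176 transcripts of the same array, for each uncut (blue) and cut (red) array. *pth1a* lies between 12.5 and 29.8 in uncut and between 34.4 and 47.3 in cut arrays, and *fstb* between 33.7 and 55.5 and between 59.7 and 68.2.

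Both genes varied more between replicates than most transcripts did. The SD within groups, pooled over the 9 arrays, was 0.45 for *pth1a* and 0.47 for *fstb*, at percentiles 86.5 and 87.6 of all transcripts, whose median was 0.26. For both, the uncut arrays were the more variable group. The uncut values of *pth1a* spanned 1.36 and the cut values 0.88, and those of *fstb* spanned 1.45 and 0.67. Over all transcripts, 42.4% had the larger SD in uncut tails. These spreads were not tested against each other.

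Of 7 listed ligands of the parathyroid hormone family, 4 could be measured, and *pth1a* was the 1 called. The others had log2 fold changes of 0.22 to 0.45. *pth1b* encodes the second zebrafish parathyroid hormone and is the closest relative of *pth1a* measured. It had values of 7.93, 9.69, 9.55 and 9.54 in uncut replicates 1 to 4 and of 8.53, 9.59, 9.47, 9.60 and 9.77 in cut replicates 1 to 5. Replicate 1 was the low array in both groups, and the other 7 arrays lay within 9.47 to 9.77. The log2 fold change of *pth1b* was 0.22 (limma adjusted p = 0.868, SE 0.38), and it was 0.06 without cut replicates 3 and 5 and turned negative with array weights and without uncut replicate 1. Its signal in uncut tails stood at percentile 58.9 of all transcripts.

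*pthlha*, which encodes a parathyroid hormone-related protein, had values of 7.09, 7.0, 6.93 and 7.12 in uncut and of 8.19, 7.51, 7.29, 7.20 and 7.22 in cut tails. All cut arrays lay above all uncut ones, with cut replicate 1 the highest at 8.19, then cut replicate 2 at 7.51 and the rest at 7.20 to 7.29. The log2 fold change was 0.45 (limma adjusted p = 0.405, SE 0.20), which did not pass. It was 0.60 without cut replicates 3 and 5. Its paralog *pthlhb* ran from 6.42 to 7.37 in uncut and from 6.80 to 7.66 in cut tails, with a log2 fold change of 0.24 (limma adjusted p = 0.743, SE 0.24). The median log2 fold change of the 3 relatives was 0.24, against 0.04 over all transcripts. None of the 7 listed receptors of the family could be assigned to a transcript here.

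Genes of calcium and phosphate handling were described next, as the processes in which parathyroid hormone acts. Of 32 listed genes, 5 were measured, 0 were called by limma in either direction and 1 had an unadjusted p under 0.05, as 12.2% of all transcripts did. Their median log2 fold change was 0.20. The epithelial calcium channel gene *trpv6* had the largest value, 0.65 (adjusted p = 0.429, SE 0.30). It ran from 7.73 to 8.08 in uncut and from 7.87 to 9.58 in cut tails, with its highest value in cut replicate 3, the array high in lens genes. Its log2 fold change was still 0.58 without cut replicates 3 and 5. The phosphate transporter gene *slc34a2b* had 0.32 (adjusted p = 0.381, SE 0.14), the vitamin D receptor gene *vdra* 0.20 (adjusted p = 0.648) and the stanniocalcin gene *stc1*, a calcium-lowering hormone of fish, 0.16 (adjusted p = 0.749).

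**Figure D3:**
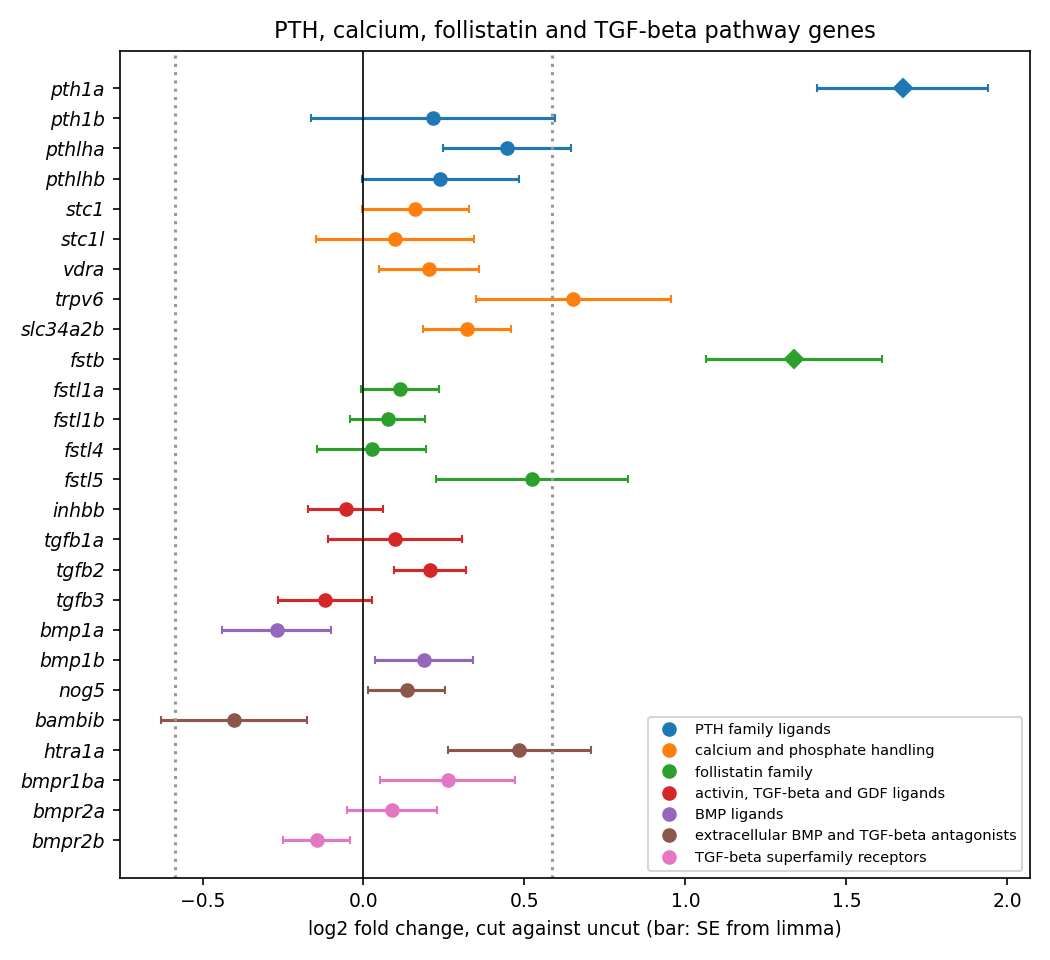
Log2 fold change of cut against uncut tails (x axis, with the SE from limma as bars) for *pth1a*, *fstb* and the measured genes of 7 lists, colored by list; diamonds mark called genes and dotted lines a fold change of 1.5 in either direction. *pth1a* is at 1.67 and *fstb* at 1.34, and the others range from -0.40 to 0.65. Both were chosen by this comparison, so their distance from the others is not a result. Listed genes that could not be assigned, such as *fstl3*, are not shown.

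Of 11 listed genes of the follistatin family, 5 were measured, and *fstb* was the 1 called. No transcript could be assigned to *fsta*, the other zebrafish follistatin, or to *fstl3*. The study itself lists *fstl3* as upregulated on these arrays, with a larger fold change than *fstb*. *fstb* is thus the 1 called only among the genes assigned here. *fstl1a* and *fstl1b* encode follistatin-like 1, a secreted glycoprotein with a follistatin domain. *fstl1a* ran from 12.88 to 13.09 in uncut and from 12.95 to 13.32 in cut tails, a log2 fold change of 0.11 (adjusted p = 0.757, SE 0.12). *fstl1b* had 0.07 (adjusted p = 0.848, SE 0.12). Both gave strong signals, at percentiles 95.2 and 84.0 in uncut tails, and overlapped between the groups. *fstl4* had 0.02 (adjusted p = 0.972), a value that turned negative with quantile normalization and with arrays centered on their median.

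*fstl5*, a follistatin-like gene expressed in the nervous system, had values of 6.13, 6.04, 6.15 and 5.99 in uncut and of 6.26, 6.35, 7.76, 6.06 and 6.56 in cut tails. Its high value fell in cut replicate 3, the array that was also highest in neuronal genes. The part of such tissue in this value was not tested. The log2 fold change of *fstl5* was 0.52 (adjusted p = 0.525, SE 0.30), and 0.15 without cut replicates 3 and 5. The 4 relatives of *fstb* had a median of 0.09.

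Of the ligands named above as bound by follistatin, only a subunit gene of activin, *inhbb*, was measured. Of 26 listed activin, TGF-beta and growth differentiation factor ligands, 4 were measured, and limma called 0 (0 at an unadjusted p under 0.05). Over all transcripts, 0.468% were called higher and 0.229% lower, so 0 of 4 says little. *inhbb*, which encodes the beta B subunit of activin and inhibin, had 10.64 ± 0.16 (SD, n = 5) in cut and 10.69 ± 0.11 (SD, n = 4) in uncut tails, a log2 fold change of -0.06 (adjusted p = 0.892, SE 0.12). The log2 fold changes of *tgfb2*, *tgfb1a* and *tgfb3* were 0.21, 0.10 and -0.12. The gene of the activin beta A subunit, known from adult fin regeneration, could not be assigned to a transcript, and neither could the myostatin genes *mstna* and *mstnb*.

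Other parts of the pathway were sparsely measured. *bmp1a* and *bmp1b*, the 2 measured of 21 genes listed as BMPs, encode proteases that cleave procollagen and chordin and not ligands. Their log2 fold changes were -0.27 and 0.19. Of 25 listed extracellular antagonists, 3 were measured. The serine protease gene *htra1a* had 0.48 (adjusted p = 0.420, SE 0.22), the pseudoreceptor gene *bambib* -0.40 (adjusted p = 0.522, SE 0.23) and the noggin gene *nog5* 0.13 (adjusted p = 0.705). Without cut replicates 3 and 5, *bambib* was at -0.13 and *htra1a* at 0.58. Of 25 listed receptors, *bmpr1ba* had 0.26, *bmpr2a* 0.09 and *bmpr2b* -0.15. In these 3 lists limma called 0 genes, also at an unadjusted p under 0.05. None of 31 listed Smads and nuclear partners could be assigned.

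Among 158 other secreted growth factors and cytokines, 19 were measured. Limma called 0, with 3 at an unadjusted p under 0.05, and their median log2 fold change was 0.07. The largest difference was that of *ptn*, which encodes the heparin-binding growth factor pleiotrophin, at -0.73 (adjusted p = 0.229, SE 0.22). It ran from 7.79 to 8.71 in cut and from 8.56 to 9.38 in uncut tails. *fgf16* had 0.49 (adjusted p = 0.335, SE 0.19), the platelet-derived growth factor gene *pdgfab* -0.48 (adjusted p = 0.398, SE 0.21) and the EGF family gene *btc* -0.44 (adjusted p = 0.70, SE 0.38). Without cut replicates 3 and 5, *btc* was at -0.16 and *pdgfab* at -0.28, while *ptn* was at -0.95 and *fgf16* at 0.72. Over all 10 lists, 43 genes besides *pth1a* and *fstb* were measured and 0 were called in either direction (5 at an unadjusted p under 0.05), where 0.468% of all transcripts were called higher and 0.229% lower. The 5 of 43 are near the 12.2% of all transcripts at that unadjusted p. Some listed genes that could not be assigned here are in the study's own list of changed genes. Among them, *fgf20a*, *il11a*, *lepb*, *htra1b* and *slc20a1a* were higher in cut tails and *phex* lower. With array weights, *htra1a* was called higher and *ptn* lower, in a fit that called 3.69% of all transcripts higher and 3.38% lower.

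Having the same direction of change, *pth1a* and *fstb* were next compared array by array after the mean of each group had been subtracted, which takes out the difference by which they were chosen. Their deviations had the same sign in 5 of 9 arrays and opposite signs in 4. Uncut replicate 2 was low for both, at -0.58 and -0.64. Uncut replicate 1 was the highest uncut array for *fstb*, at 0.82, and lay at -0.13 for *pth1a*. In cut tails, replicate 5 was the highest for *pth1a*, at 0.29, and lay at -0.21 for *fstb*. Pearson's r over the 9 deviations was 0.26 (p = 0.658) and Spearman's rho was 0.12 (p = 0.853), in two-sided exact permutation tests that reordered arrays within groups. Adjusted over these 2 measures, both p-values were 0.853. Without uncut replicate 3 and cut replicate 2, the 2 arrays farthest out for *pth1a*, r was 0.40 (exact permutation p = 0.653), and without uncut replicate 2 it was -0.11. A shared variation of the 2 genes between replicates was thus not detectable with 9 arrays.

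The replicate variation of *fstb* was then set beside that of 11 lists of tissue markers, and the relations largest by r, with skeletal muscle and with liver genes, did not pass adjustment. In uncut tails, the mean of 13 measured muscle genes (of 59 listed) was 10.61, 10.02, 10.47 and 9.95 in replicates 1 to 4. Replicates 1 and 3 were thus the high arrays for both muscle genes and *fstb*. In cut tails the muscle mean was 10.81, 10.68, 10.70, 10.42 and 10.37, highest in replicate 1, which was also highest for *fstb*. Over the 9 deviations from the group means, r was 0.84 (exact permutation p = 0.0233) and rho was 0.88 (p = 0.0326, exact). These relations were chosen after values had been seen, and adjusted over 22 of them (2 genes with 11 lists) the p-values were 0.363 and 0.359. The permutation tests took cut and uncut arrays as unpaired, although same-numbered arrays may be related. Without uncut replicates 2 and 4, the 2 arrays farthest out in muscle genes, r was 0.62. With the 2 measured liver genes, r of *fstb* was -0.82 (exact permutation p = 0.033, 0.363 adjusted), and 0.04 without uncut replicate 1 and cut replicate 1. For *pth1a*, r with muscle genes was 0.27 (exact permutation p = 0.642).

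Between the groups, the muscle genes overlapped. The summed level of the 13 genes was 15.58 to 16.15 in cut and 15.19 to 15.94 in uncut arrays on the log2 scale, and their median log2 fold change was 0.29. Of the 13, limma called 1 higher, the slow troponin gene *tnni1b* (adjusted p = 0.0961, close to the limit of 0.1), and 0 lower. Of all transcripts, 0.468% were called higher and 0.229% lower. With the muscle mean as a covariate, an alternative added after the data had been seen, the log2 fold change of *fstb* was 0.83 (adjusted p = 0.272, SE 0.21), against 1.34 without it. That of *pth1a* was 1.52 (adjusted p = 0.236, SE 0.33). With this covariate, 30 transcripts in all were called higher, against 174 without it. The muscle mean itself ran higher in cut (10.37 to 10.81) than in uncut arrays (9.95 to 10.61). The covariate may therefore take up part of the difference between the groups. The part of muscle tissue in the change of *fstb* was not tested.

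Likeness to the pattern of *fstb* was measured as Pearson's r over 9 arrays, among the 2662 other transcripts with an assigned gene, and is a description. Over the deviations from the group means, *ampd1*, which encodes the AMP deaminase of skeletal muscle, came first (r = 0.979). It had values of 9.79, 7.46, 8.66 and 7.84 in uncut and of 10.16, 9.32, 9.02, 9.09 and 8.53 in cut tails. *zgc:153704* followed (r = 0.974), then *jph2* (r = 0.972), which encodes a junctophilin that ties surface to internal membranes in muscle cells, *ppp1r21* (r = 0.964) and *vps35l* (r = 0.957). Neither *ampd1* nor *jph2* is in the list of muscle genes used here, and no muscle role is given to the other 3. The arrays of *ampd1* and *jph2* overlapped between the groups, and their log2 fold changes were 0.79 and 0.28. Over the 9 values without subtraction, the transcription factor genes *ets2* (r = 0.979) and *klf7a* (r = 0.968) were most like *fstb*, before *stx18*, *stoml2* and *entpd4* (r = 0.954 to 0.964).

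For *pth1a*, the closest patterns over the 9 values were those of the organic anion transporter gene *slco2b1* (r = 0.939), the kinase gene *mapkapk3* (r = 0.927), the Polycomb gene *cbx7a* (r = 0.920), the Wnt antagonist gene *sfrp1b* (r = 0.918) and *txndc12* (r = 0.916). Like *pth1a*, all 5 genes had higher values in every cut array than in any uncut array, and the 9 values hold this difference. *fstb* ranked 46 by this measure, with an r of 0.826. Over the deviations from the group means, the closest were *znf362a* (r = 0.893), *hlfa* (r = 0.859), which encodes a bZIP transcription factor, *zgc:153813* (r = 0.857), the methyltransferase gene *mettl8* and the matrix metalloproteinase gene *mmp30* (both r = 0.846). *fstb* ranked 740. The log2 fold changes of these 5 genes ran from -0.51 to 0.68, and none was a marker listed here for neuromasts, neurons or muscle.

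Other tissue markers were set beside the 2 genes in the same way. For *pth1a*, no list reached an adjusted p of 0.05, and r over the deviations ran from -0.46 (epidermis) to 0.30 (photoreceptors). For *fstb*, rho with lens genes was -0.67 (exact permutation p = 0.00174, 0.0382 adjusted over 22 relations), while r was -0.40 (exact permutation p = 0.0938, 0.412 adjusted). Here too the relations were chosen after values had been seen, and the tests took cut and uncut arrays as unpaired. The 22 p-values of r and those of rho were adjusted separately, and not over both measures together. Nothing is therefore concluded from the adjusted p of rho. Without cut replicates 1 and 3, whose deviations from the cut mean of lens genes were largest, r was -0.45. Cut replicate 1 was not high in lens genes, at a mean of 7.58, and cut replicate 5, at 9.21, stayed in. *fstb* was lowest among cut arrays in replicates 3 and 5, at 9.28 and 9.29, the arrays high in lens genes, and *pth1a* highest there, at 8.34 and 8.46.

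The summed level of immune cell markers was higher in all cut than in all uncut arrays. That of lateral line markers was too, but through 1 gene. The 4 measured genes of macrophages and neutrophils, of 40 listed, had a summed level of 9.63 to 10.75 in cut and 8.91 to 9.44 in uncut arrays, without overlap. Of these, limma called 0, where 0.468% of all transcripts were called higher and 0.229% lower. Close to the limit of 0.1 were *havcr1*, at a log2 fold change of 1.47 (limma adjusted p = 0.102), and *spi1b*, at 1.25 (limma adjusted p = 0.112). Other genes of the list, among them *irf8*, *grn1*, *c6*, *mmp13a* and *mmp9*, could not be assigned here and are upregulated in the study's own list. *spi1b* and *havcr1* had all cut arrays above all uncut arrays, as 2.83% of all transcripts did. The 5 measured genes of neuromasts and their otolith relatives, of 40 listed, had a summed level of 13.16 to 14.06 in cut and 11.67 to 12.30 in uncut arrays. This sum was carried by *stm*, an otolith matrix gene, at 1.77 (adjusted p = 0.0133 from limma). The mean of the 5 genes overlapped, at 8.06 to 8.53 in cut and 7.83 to 8.14 in uncut arrays. By the mean, the 6 neuronal genes were narrowly apart, at 7.703 to 9.273 in cut and 7.471 to 7.700 in uncut arrays. Their summed level overlapped. The hair cell genes *pou4f3* and *myo7aa* had log2 fold changes of 0.13 and -0.09, and *tectb* and *otomp* of 0.16 and 0.03. The part of these cells in the change of *pth1a* or *fstb* was not tested.

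The adjusted p-values that had chosen the 2 genes were 0.0361 for *pth1a* and 0.0919 for *fstb*, the latter close to the limit of 0.1. With each array left out in turn, *pth1a* was called in 7 of 9 cases, at log2 fold changes of 1.48 to 1.93, and lost the call without uncut replicate 2 (adjusted p = 0.137 from limma) or uncut replicate 4 (adjusted p = 0.153). *fstb* was called in 2 of 9, without uncut replicate 1 (1.61, adjusted p = 0.0276) and without uncut replicate 3 (1.39, adjusted p = 0.0815). In the other 7 cases its log2 fold change was 1.12 to 1.39 and its adjusted p from 0.129 to 0.319. Every fold change stayed positive, which is fixed where the groups do not overlap.

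**Figure D4:**
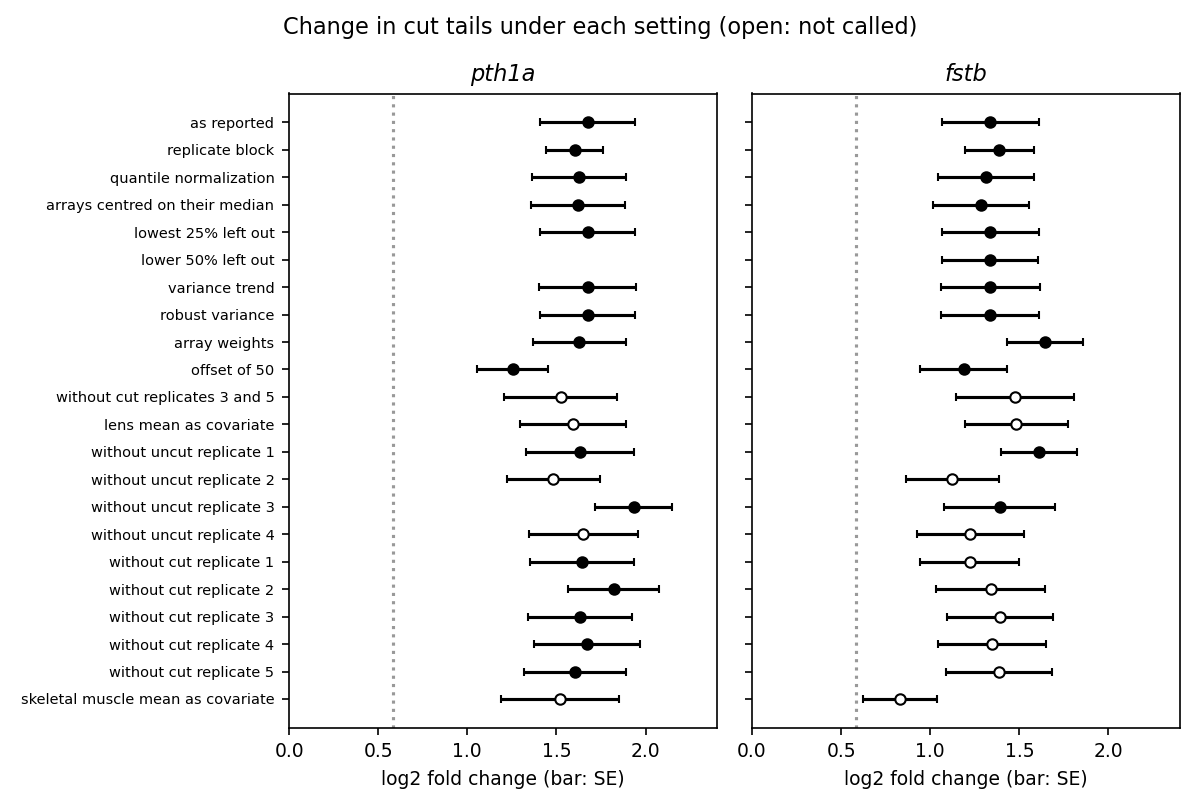
Log2 fold change of cut against uncut tails (x axis, with the SE from limma as bars) for *pth1a* (left) and *fstb* (right) as reported and under each alternative, with filled points where the gene was called and a dotted line at a fold change of 1.5. With 1 array left out, *pth1a* keeps 7 of 9 filled points and *fstb* 2 of 9; the lowest value of *fstb*, 0.83, is that with the muscle mean as a covariate.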

How the data were processed

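Expression was measured on NimbleGen zebrafish arrays with 1 color in 5 cut and 4 uncut samples of posterior tissue. The deposited log2 values were made by the authors with RMA background correction and quartile normalization in ArrayStar (version not given in the sources used here), 1 value per transcript and array. How probes were summarized was not stated. The values ran from 3.17 to 15.99 and were used as provided, without a filter, and 0 columns lacked a sample. The arrays have no depth, and their number limits the precision.

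All 37176 transcripts were fitted with limma 3.58.1 in R 4.3.3 with condition as the only term. Following the study's methods, a call needed a 1.5-fold change and a Benjamini-Hochberg adjusted p no higher than 0.1. The script was checked on simulated data. Permutation tests enumerated the 2880 orders of arrays within groups. Gene names came from RefSeq (assembly GRCz12tu, names only), which matched 2663 of 3055 RefSeq accessions. A listed gene counts as measured where a transcript matched it, so unnamed transcripts may hold more of them. Of 343 listed pathway genes, 45 were measured.

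The 2 genes and the lists were chosen with earlier results of these data known. Named were these 2, their measured paralogs, up to 4 genes of each pathway list with the largest differences, and the 5 most alike by r. Chosen after values were seen were the tests against marker lists, the muscle covariate, and the named marker genes. Sequences were not used here.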

Additional observations from a re-analysis of the deposited data

Results flagged for a closer look

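Dixon's test at 95%, run on 112 sets of arrays of 1 group, found 7 with a single array far from its neighbors. Chance gives about 1 in 20, or 5.6 of 112. *pth1b* was low in replicate 1 of both groups, at 7.93 in uncut tails (the others lay at 9.54 to 9.69) and 8.53 in cut tails (the others at 9.47 to 9.77). *btc* was high in cut replicate 1, at 10.72, while the remaining cut arrays had 8.83 to 9.22. In uncut replicate 1, *fgf16* was high at 9.43 (9.01 to 9.05 in the others) and *slit1b*, which encodes a guidance ligand, at 8.45 (7.78 to 7.81). *nog5* was high in cut replicate 4, at 5.16 (4.73 to 4.77 in the others). In neuronal genes (6 measured), cut replicate 3 had a mean of 9.27, where the remaining cut arrays had 7.70 to 7.98. *pth1a* and *fstb* held no such value in either group.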

How the results depend on the processing

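*pth1a* kept its sign and its call in 18 of 23 alternatives and *fstb* in 13 of 24. Both kept their sign in all of them, which the lack of overlap fixes in settings without a covariate or new normalization. The settings with another fold minimum or adjusted p reuse the same fit, and dropping the fold minimum cannot lose a call. As this comparison chose both genes, these counts are a description and not a test of their change. With the lower 50% of transcripts left out, *pth1a* was not measured. Without cut replicates 3 and 5, *pth1a* was at 1.52 and *fstb* at 1.48, with the lens mean as a covariate at 1.59 and 1.48, and with the muscle mean at 1.52 and 0.83, each without a call, and *fstb* at 1.34 was not called at the stricter adjusted p of 0.05. With arrays left out in turn, *pth1a* ran from 1.48 to 1.93, *fstb* from 1.12 to 1.61 and the r of their deviations from -0.11 to 0.55.

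The number of transcripts called, 174 higher and 85 lower, became 1371 and 1257 with array weights, 90 and 29 at the stricter p of 0.05, 96 and 32 at a 2-fold change, 97 and 17 without cut replicates 3 and 5, and 30 and 6 with the muscle covariate. The lens covariate gave 35 lower and the filter on the lower 50% 143 lower. Centering on the array median gave 142 and 109. With arrays left out in turn, 47 (without uncut replicate 2 or 4) to 326 (without uncut replicate 3) were higher and 7 (without uncut replicate 4) to 544 (without uncut replicate 3) lower. The lower count moved by more than 1.5 times without each array but cut replicate 1 (60), and the higher count without each array but uncut replicate 1 (160) and cut replicates 3 (131) and 5 (134). A stricter threshold must lower a count; for the other settings the cause was not tested.

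Same-numbered arrays had deviations that correlated at 0.58, 0.09, 0.25 and 0.32. Each of the 8 arrays was closest to its own number in the other group, so the numbers may pair the samples. The sample titles do not state a pairing, and none was assumed in the main fit or the permutation tests. Those tests reordered the arrays of each group separately, so their p-values would not hold for paired samples. The fit with the replicate block also leaves out cut replicate 5, which has no partner. It called 377 transcripts higher and 297 lower, where the fit without that array and without the block called 134 and 42. With the block, *pth1a* was at 1.60 and *fstb* at 1.39, the same values as without that array alone, and r was 0.30; both genes were called with the block, and *fstb* was not called without it and that array. The 43 other pathway genes were called in 2 of 995 pairs of gene and alternative, and 14 of them changed sign in at least 1.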
